A study of Mus musculus with 23 samples.

Results

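The enzymes that build heme were examined in the colon mucosa of mice fed heme. The members were chosen by their place in the pathway and not by their values, although earlier results of these data were known. They are Alas1, Alad, Uros, Urod, Cpox, Ppox and Fech, 7 of the 18820 genes measured, each with 1 probe set on the array. The pathway's remaining enzyme was not analysed here. The wild-type (WT) mice were of strain 129S1/SvImJ and the PPARα knockout (KO) mice of strain 129S4/SvJae-Pparatm1Gonz/J, so that genotype and substrain cannot be told apart. All mice were male, 7 to 9 weeks old at the start, and received for 14 days either a Westernized high fat control diet, with 40 energy% fat and a low calcium content of 30 µmol/g, or that diet with 0.5 µmol heme/g added. There were 11 WT mice, of which 6 received heme and 5 did not, and 12 KO mice with 6 on either diet, each mouse on 1 array. In the KO line the ligand binding part of Ppara is disrupted in the whole animal and not in the colon alone. PPARα is a nuclear receptor activated by fatty acids, and the study asked about its part in the response of the colon to dietary heme. The design lets the diets be compared within each genotype, the genotypes on each diet, and the response to heme between the genotypes.

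Heme synthesis starts and ends in the mitochondrion and passes through the cytosol in between. Every nucleated cell can run it, since heme is the prosthetic group of cytochromes, catalase and peroxidases, and the erythroid precursors run it for haemoglobin with a first enzyme of their own, encoded by Alas2. In other cells the step of Alas1 sets the rate, and heme represses Alas1 at several levels in the liver. The intermediates after the first steps are porphyrins or their precursors, which are toxic to cells when they accumulate.

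On the heme diet some transcripts of the pathway rose and others fell. In WT mice Alas1 and Alad rose, by 1.36-fold and 1.25-fold, whereas Urod and Ppox fell by 1.25-fold and 1.20-fold. In KO mice Urod and Ppox also fell, by 1.22-fold and 1.31-fold, while Alas1 was 1.29-fold and Alad 1.07-fold higher without passing the test. Uros, Cpox and Fech passed it in neither genotype. A gene counted as changed (called) when its limma p, adjusted over all genes, was below 0.01 and either group of the comparison had a mean linear signal over 20. By this rule 4 of the 7 enzymes were called in WT mice, beside 17.9% of all genes, and 2 were higher and 2 lower, beside 9.60% and 8.29%. In KO mice 2 of 7 were called, beside 18.4% of all genes; 0 were higher and 2 lower, beside 9.23% and 9.20%. Over the 7 enzymes the log2 changes had a median of 0.05 for WT and -0.00 for KO mice, close to the median over all genes, which was -0.01 for both. The called enzymes lay on both sides of 0.

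The labelled tissue was checked against markers. The 12 epithelial genes had a summed linear signal of 54346 to 61856 over the 23 arrays, against 93.4 to 118 for the 5 erythroid genes measured of 10. Of the defining erythroid genes, those of haemoglobin were not analysed here, and Alas2 had a signal of 30.5 to 49.8. Smooth muscle signal was uneven: the 14 genes summed to 15679 and 19772 in 2 WT control arrays (replicates 1 and 2), to 6886 to 8336 in the other 3, and to 3628 to 9747 in the remaining groups. In WT mice 12 of these 14 genes were called lower on heme (median log2 change -1.14), beside 8.29% of all genes. In KO mice 1 was called lower (median -0.50), beside 9.20% of all genes. In either genotype 0 of the 14 changes were above 0. The members' values are therefore also given without those 2 WT control arrays, a choice made after seeing the data. Ppara itself had a signal of 444 to 560 in WT control, 344 to 475 in WT heme, 240.0 to 378 in KO control and 163 to 238 in KO heme mice, and was called lower in the KO than in the WT mice on both diets (log2 difference -0.68 and -1.06), with its probes not placed relative to the disrupted part. Of all genes, heme raised 1806 and lowered 1561 in WT mice and raised 1738 and lowered 1731 in KO mice. After each array was centred on its median, 2298 were higher and 1156 lower for WT, and 2353 higher and 1200 lower for KO mice. Arrays correlated with the others of their group at a mean r of 0.991 to 0.996, and in bulk mucosa fewer cells of a type and less RNA per cell cannot be told apart.

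**Figure D1:**
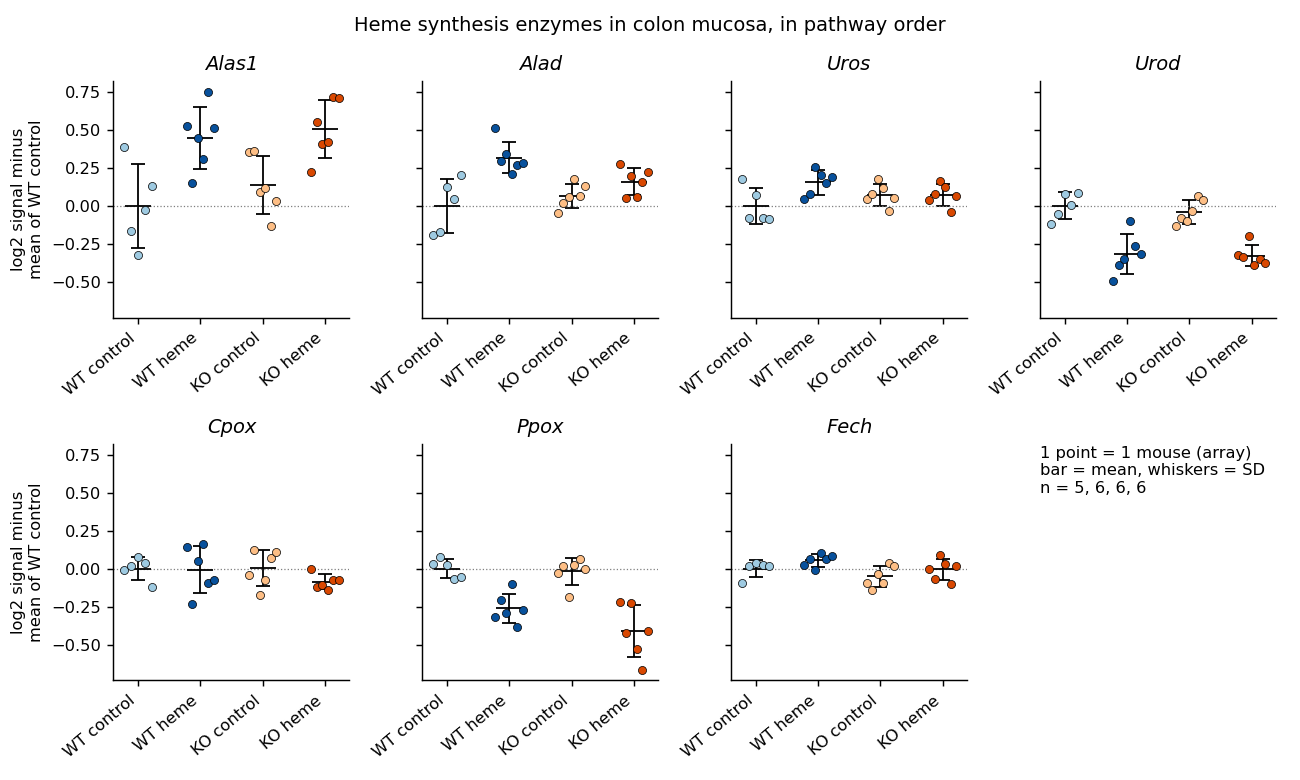
Log2 signal of each heme synthesis enzyme minus the mean of the WT control group, in the 4 groups (x axis); 1 point is 1 mouse, the bar is the group mean and the whiskers are the SD (n = 5, 6, 6 and 6). By group mean, Alas1 lies higher in both heme groups, although it was called in WT mice only, and Alad lies higher in the WT heme group. Urod and Ppox lie lower in both heme groups than in the controls. The points of Uros, Cpox and Fech overlap between the diets, as do those of Alas1 in both genotypes, Alad in KO and Urod in WT mice.

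The first enzyme, encoded by Alas1, joins glycine and succinyl-CoA to 5-aminolevulinate in the mitochondrial matrix. Its linear signal in the 5 WT control arrays was 558, 622, 686, 766 and 913. In WT mice on heme it ranged from 775 to 1175 with a median of 974. The 2 groups overlapped, since the highest control array lay above the lowest of the heme arrays, and 4 of 6 heme arrays exceeded all controls. The log2 change was 0.45 ± 0.12 (SE; 95% interval 0.20 to 0.70), with a limma adjusted p of 0.00782 and an exact two-sided permutation p of 0.0152. In KO mice the signal was 637 to 895 (median 752) on the control diet and 816 to 1149.8 (median 978) on heme. Here 5 of 6 heme arrays lay above every control array. The log2 change was 0.37 ± 0.12 (95% interval 0.13 to 0.61), with a limma adjusted p of 0.0204 and an exact two-sided permutation p of 0.0108. Alas1 had the widest spread of the 7 enzymes in the WT control group, an SD of 0.27 on the log2 scale. Its call in WT mice was close to the threshold: it was lost without any 1 of 7 arrays (WT control replicates 2, 3 and 4 and WT heme replicates 1, 3, 5 and 6), where the log2 change was 0.37 to 0.45 and the limma adjusted p 0.0145 to 0.0294. The KO value passed the threshold without KO heme replicate 1 (limma adjusted p 0.00926). Without the 2 WT control arrays rich in smooth muscle signal, the change in WT mice was 0.52 (limma adjusted p 0.00884). The call was lost with the smooth muscle level of each array as a covariate (0.43, limma adjusted p 0.101) and with only the WT groups in the fit (0.45, limma adjusted p 0.021). The calls over all genes in WT mice also fell there, from 3367 to 1185 and 2509.

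Alad encodes the next enzyme, which condenses 2 molecules of 5-aminolevulinate to porphobilinogen in the cytosol. The signal in the WT control arrays was 1522, 1543, 1793, 1895 and 1999, and in WT mice on heme 2014 to 2477 (median 2126). All 6 heme arrays lay above all 5 controls, although the lowest heme array exceeded the highest control by little. The log2 change was 0.32 ± 0.07 (95% interval 0.17 to 0.46), with a limma adjusted p of 0.00139 and an exact two-sided permutation p of 0.00216, the smallest that 5 against 6 arrays allow. In KO mice the signal was 1688 to 1967 (median 1816) without and 1802 to 2106 (median 1969) with heme. These groups overlapped, with 3 of 6 heme arrays above every control. The log2 change of 0.09 ± 0.07 (95% interval -0.05 to 0.23) did not pass the test (limma adjusted p 0.336; exact two-sided permutation p 0.0801). The 2 lowest WT control values of Alad, 1522 and 1543, came from the 2 arrays with the most smooth muscle signal. Without both, the log2 change in WT mice was 0.20 with a limma adjusted p of 0.0485, and with the smooth muscle level of each array as a covariate it was 0.18 with a limma adjusted p of 0.201. Across the 23 arrays the log2 level of Alad and the mean log2 level of the smooth muscle genes had a Pearson r of -0.66, and of -0.48 after the group means were removed, as a description over arrays that share diet and genotype. The part of smooth muscle in the result was not tested beyond these values.

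Uros closes the linear tetrapyrrole to uroporphyrinogen III. The signal was 78.5, 78.6, 78.8, 87.6 and 94.0 in WT control and 85.9 to 99.6 (median 93.7) in WT heme mice. The groups overlapped, with 3 of 6 heme arrays above all controls. The log2 change of 0.15 ± 0.06 (95% interval 0.04 to 0.27) did not pass the threshold (limma adjusted p 0.0418; exact two-sided permutation p 0.0455), but did so with limma's array weights, at 0.19 and an adjusted p of 0.00693. For KO mice the signal was 81.2 to 94.2 (median 87.2) on the control diet and 80.9 to 93.2 (median 87.5) on heme. These ranges nearly coincided (log2 change -0.00, 95% interval -0.11 to 0.11, limma adjusted p 0.987).

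Urod removes carboxyl groups from uroporphyrinogen III to give coproporphyrinogen III, the last step in the cytosol. Its signal was 362, 379.9, 397, 417 and 419 in WT control mice and 280.3 to 368 (median 313) in WT heme mice. In WT mice 5 of 6 heme arrays lay below all controls, and the remaining array just above the lowest control. The log2 change was -0.32 ± 0.06 (95% interval -0.44 to -0.19), with a limma adjusted p of 3.47e-04 and an exact two-sided permutation p of 0.00649. KO mice had a signal of 359 to 412 (median 379) on the control diet and 301 to 344 (median 311) on heme. The 2 KO groups did not overlap. The change was close to that in WT mice, -0.29 ± 0.06 (95% interval -0.41 to -0.17), with a limma adjusted p of 5.79e-04 and an exact two-sided permutation p of 0.00216. Urod was called in both genotypes without any 1 array, and in WT mice also without the 2 arrays rich in smooth muscle signal (-0.38, limma adjusted p 7.11e-04). It was the 1 enzyme called in WT mice with the smooth muscle covariate, beside 1185 of all 18820 genes.

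Cpox oxidises coproporphyrinogen III to protoporphyrinogen IX in the space between the mitochondrial membranes. The WT control signal was 214, 231, 235, 239 and 246, and that of WT heme mice 198 to 260.0 (median 231), so that the heme arrays spread on both sides of the controls. The log2 change in WT mice was -0.01 (95% interval -0.15 to 0.13, limma adjusted p 0.955). The KO arrays had signals of 206 to 253 (median 235) on the control diet and 211 to 232 (median 219) on heme, the latter range inside the former. The log2 change was -0.09 (95% interval -0.22 to 0.04, limma adjusted p 0.341). The sign of the WT value changed with the centring of arrays and with the smooth muscle covariate.

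Ppox oxidises protoporphyrinogen IX to protoporphyrin IX, the ring that receives the iron. In WT control mice the signal was 242, 244, 259, 259 and 267, against 195 to 237 (median 209) on heme. The WT groups did not overlap. The log2 change was -0.26 ± 0.07 (95% interval -0.41 to -0.12), with a limma adjusted p of 0.00656 and an exact two-sided permutation p of 0.00433. In KO mice the signal was 223 to 266 (median 256) on the control diet and 160.2 to 218 (median 190.4) on heme. These groups were also apart, and the KO heme arrays reached lower values than any other group. The log2 change of -0.39 ± 0.07 (95% interval -0.53 to -0.26) had a limma adjusted p of 1.06e-04 and an exact two-sided permutation p of 0.00216. The KO call held without any 1 array. The WT call was lost without any 1 of 7 arrays (WT control replicates 1, 2 and 3 and WT heme replicates 1, 3, 5 and 6; limma adjusted p 0.0126 to 0.0218), with centred arrays (-0.22, limma adjusted p 0.0146), without the 2 arrays rich in smooth muscle signal (-0.23, limma adjusted p 0.0643) or with the smooth muscle covariate (-0.21, limma adjusted p 0.164). All of these values were negative.

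Fech inserts ferrous iron into protoporphyrin IX at the inner mitochondrial membrane and carries an iron-sulfur cluster. Its signal was 218, 235, 235, 237 and 239 in WT control and 231 to 249.8 (median 243) in WT heme mice. In WT mice 4 of 6 heme arrays exceeded all controls, yet the log2 change was small, at 0.05 ± 0.04 (95% interval -0.04 to 0.14, limma adjusted p 0.406; exact two-sided permutation p 0.0758). In the KO arrays it was 211 to 238 (median 222) on the control diet and 217 to 247 (median 234) on heme. The ranges overlapped for the most part (log2 change 0.05, 95% interval -0.04 to 0.13, limma adjusted p 0.457). Fech thus had the narrowest intervals of the 7 enzymes, and both bounds lay within 0.15 of 0 on the log2 scale.

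**Figure D2:**
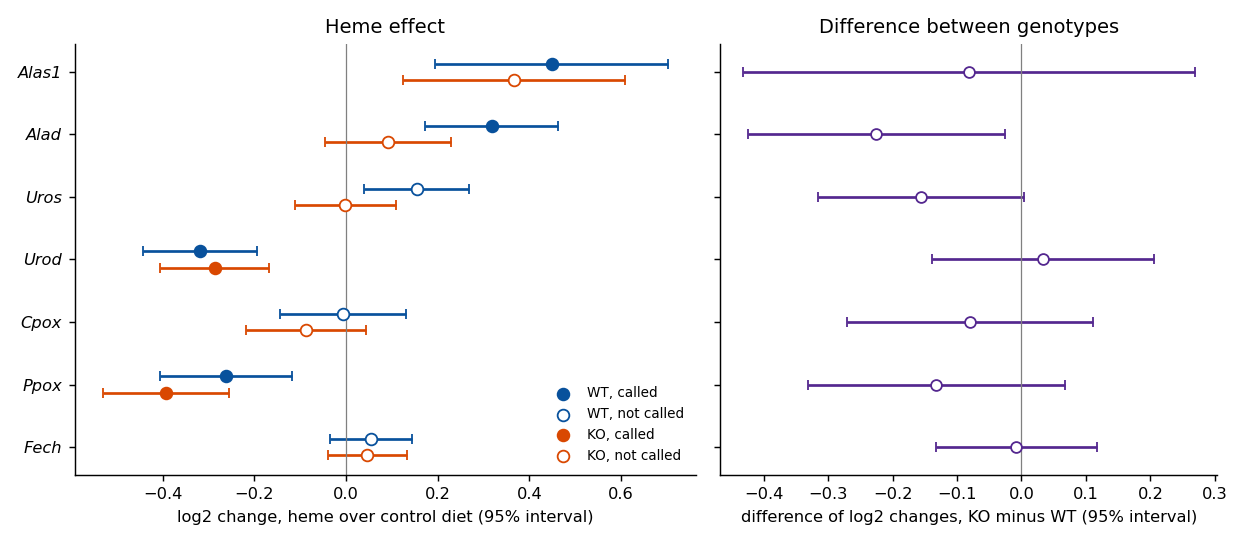
Log2 change on heme of each enzyme in WT (blue) and KO (orange) mice on the left, and the KO change minus the WT change on the right, with 95% intervals from the limma fit; filled points were called at an adjusted p below 0.01. Alas1, Alad, Urod and Ppox are filled in WT mice, Urod and Ppox in KO mice, and no difference between the genotypes is filled.

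Among all genes, the log2 change of Alas1 in WT mice stood at the 95.8th percentile and that of Alad at the 92.0th, while Urod stood at the 8.60th and Ppox at the 11.3th. In KO mice the positions were 94.3 for Alas1, 74.0 for Alad, 10.4 for Urod and 5.70 for Ppox. Each of these changes was smaller than that of Hmox1, which encodes the inducible heme oxygenase that degrades heme. The signal of Hmox1 was 52.9 to 73.5 in WT control and 154 to 1143 in WT heme mice, and in KO mice 53.0 to 84.5 without and 249 to 730.0 with heme. The Hmox1 groups did not overlap, and the log2 changes of 3.43 for WT and 2.93 for KO mice were both called.

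The knockout was compared with WT on each diet. On the control diet 0 of 7 enzymes were called, beside 0.0531% of all genes, and the log2 differences ran from -0.05 for Fech to 0.14 for Alas1. On the heme diet 0 of 7 were called, beside 0.234% of all genes. The largest difference there was that of Alad, with a log2 value of -0.16 for KO minus WT mice (95% interval -0.29 to -0.02, limma adjusted p 0.328; exact two-sided permutation p 0.013). Of 6 KO heme arrays 4 lay below every WT heme array for Alad. Ppox followed with -0.15 (95% interval -0.29 to -0.01, limma adjusted p 0.355; exact two-sided permutation p 0.0996), again with 4 of 6 KO arrays below all WT arrays. The single-gene permutation values are not adjusted for the 7 enzymes and 4 comparisons.

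Whether the response to heme itself differed between the genotypes was tested as an interaction, the log2 change in KO minus that in WT mice. Over the 7 enzymes 0 were called, beside 0.0106% of all genes. For Alad the difference was -0.23 (95% interval -0.42 to -0.03, unadjusted limma p 0.0286, adjusted p 0.687), for Uros -0.16 (-0.31 to 0.00, adjusted p 0.737) and for Ppox -0.13 (-0.33 to 0.07, adjusted p 0.835). An ordinary two-way model gave nearly the same intervals, -0.43 to -0.02 for Alad and -0.31 to -0.01 for Uros. Without the 2 WT control arrays rich in smooth muscle signal, the difference for Alad was -0.10. For Urod it was 0.03 (-0.14 to 0.21) and for Fech -0.01 (-0.13 to 0.12). For Alas1 the interval was wide, from -0.43 to 0.27. The call of Alad in WT and not in KO mice is therefore not shown to be a difference between them, and the intervals also do not show that the genotypes responded alike.

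The levels of the enzymes were also compared from array to array. Urod and Ppox, both called lower on heme in each genotype, had a Pearson r of 0.81 between their log2 levels over the 23 arrays, which the shared diet effect enters, and of 0.40 after the group means were removed. Within groups the pairs with the largest r in size were Urod with Fech (0.61) and Alas1 with Fech (-0.61), although over all arrays these were -0.07 and -0.13. The level of Alas1 ran against both, with r of -0.75 for Urod and -0.77 for Ppox (-0.37 and -0.48 within groups). The level of Alad was less tied to Alas1, with r of 0.35 and -0.22 within groups. These correlations describe arrays that share diet and genotype, and no test was made.

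**Figure D3:**
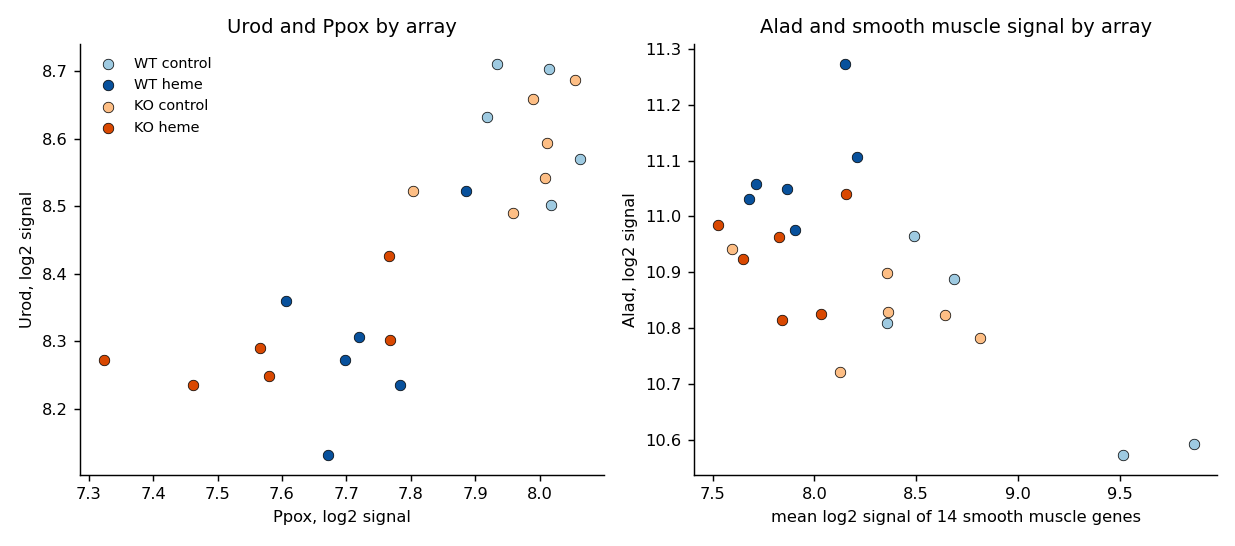
Log2 signal of Urod against that of Ppox on the left, and log2 signal of Alad against the mean log2 signal of 14 smooth muscle genes on the right, with 1 point per array coloured by group. Urod and Ppox are both low in heme arrays, apart from 1 WT heme array among the controls, and the 2 WT control arrays with the most smooth muscle signal have the lowest Alad levels.

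The genes whose levels followed each enzyme most closely were searched among the 14391 genes with a mean signal above 20 in a group, over the same 23 arrays. The shared diet effect enters these r, so that a like change on heme is partly set by the choice. Values of r after the group means were removed are given as within groups. For Urod these were Slc2a5, the fructose transporter GLUT5 (r = 0.96, and 0.87 within groups), Htr4, a serotonin receptor (0.95 and 0.80), and Angel2 (0.95 and 0.87). They were also lower on heme, as the choice favours, Slc2a5 by a log2 change of -1.17 in WT and -1.28 in KO mice. For Ppox they were Zscan26 (0.96, and 0.89 within groups), Mylip, a ubiquitin ligase for the LDL receptor (0.94 and 0.76), and the RNA helicase Ddx17 (0.94 and 0.77). For Alas1 the nearest was Sgk2, a serum and glucocorticoid regulated kinase (0.87, and 0.81 within groups). Sgk2 was also higher on heme, as the choice favours (log2 change 1.15 and 1.29 for WT and KO mice). Mapk1ip1l (0.85 and 0.66) and the cell cycle phosphatase Cdc25a (0.85 and 0.65) followed. For Alad they were Pitrm1, a mitochondrial peptidase (0.88, and 0.82 within groups), the proteasome subunit Psmb7 (0.88 and 0.79) and Mpv17l2 (0.88 and 0.74). Over all arrays Uros, Cpox and Fech had neighbours of lower r. Beside Uros r was 0.66 to 0.69 for Crnkl1, Mrps26 and Gfm2 (0.46 to 0.58 within groups). For Cpox r was 0.71 to 0.75 (Slc16a10, Rab39b and Sec22c), and for Fech 0.75 to 0.77 (Mab21l4, Ess2 and Ephx2). Within groups it was 0.68 to 0.82 for Cpox and 0.59 to 0.77 for Fech. By that measure the neighbours of Cpox were about as close as those of Alas1 and Alad.

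The stretches before the transcription start sites of the 4 called enzymes are shown, because these genes moved in opposite directions and the letters allow their starts to be compared. The sequences are from RefSeq on build GRCm38.p6, which held promoter windows for 6 of the 7 genes. Each run is the 250 bases upstream of a start site, 5′ to 3′ on the gene's strand. Alas1 lies at chr9:106247955-106248204, Alad at chr4:62520064-62520313, Urod at chr4:116994414-116994663 and Ppox at chr1:171281187-171281436, all on the minus strand, and for Alas1 and Alad the first of 2 start sites is shown. Capitals mark a GC box (GGGCGG, the site of Sp1-type factors) or an E-box (CACGTG), on either strand. The last line is the 30-base stretch at chr9:106247907-106247936, just downstream of the first Alas1 start site and upstream of the second. Capitals in that line mark an Nrf1 core (GCGCATGC) that matches on both strands with 2 overlapping hits.
Alas1: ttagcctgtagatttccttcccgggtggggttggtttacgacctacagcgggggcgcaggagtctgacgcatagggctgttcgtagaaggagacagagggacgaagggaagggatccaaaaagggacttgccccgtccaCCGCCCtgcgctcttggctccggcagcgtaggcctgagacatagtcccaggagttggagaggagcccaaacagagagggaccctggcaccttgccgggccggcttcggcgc
Alad: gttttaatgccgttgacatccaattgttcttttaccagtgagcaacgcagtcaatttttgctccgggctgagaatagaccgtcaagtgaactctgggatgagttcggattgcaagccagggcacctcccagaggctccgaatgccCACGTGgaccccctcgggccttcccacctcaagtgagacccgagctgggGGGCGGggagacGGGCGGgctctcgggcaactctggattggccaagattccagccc
Urod: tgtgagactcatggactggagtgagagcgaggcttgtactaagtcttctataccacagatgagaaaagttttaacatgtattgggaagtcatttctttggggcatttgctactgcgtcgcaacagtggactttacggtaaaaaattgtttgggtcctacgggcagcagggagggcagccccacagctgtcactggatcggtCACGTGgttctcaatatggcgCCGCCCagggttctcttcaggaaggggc
Ppox: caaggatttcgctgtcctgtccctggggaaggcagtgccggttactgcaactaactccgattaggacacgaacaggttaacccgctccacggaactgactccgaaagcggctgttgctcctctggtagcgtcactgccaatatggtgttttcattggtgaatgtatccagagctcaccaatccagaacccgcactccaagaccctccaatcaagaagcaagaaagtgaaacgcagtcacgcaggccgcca
Alas1 downstream: ccgcacccaagGCGCATGCGCggcggtcac

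Windows of 300 bases, 250 before and 50 after each start, were searched on both strands. A GC box was found for 5 of the 6 matched genes (Alas1, Alad, Uros, Urod and Ppox, where it lies downstream of the start) and in 35.7% of 32851 windows of all genes. The E-box was found for Alad, Urod and Uros and in 7.15% of windows. The Nrf1 core, a motif common before genes of mitochondrial proteins, was found for Alas1 alone of the 6 genes and in 2.71% of windows. The antioxidant response element core (TGANNNNGC) occurred for Cpox and Uros, in 41.3% of all windows, and in none of the windows of the 4 called genes. The PPAR response element, searched as an exact direct repeat with 1 base between, was in 0.0396% of windows and in none of those of the 6 genes. The 2 windows of Alas1 overlap, as do those of Alad, so that some matches were counted in both. The matches describe letters and not binding, and neither the enzymes that rose nor those that fell shared a motif that the others lacked.

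The genes around the pathway were counted from lists of the same kind, which were also chosen with earlier results of these data known. Succinyl-CoA and glycine are the substrates of the first enzyme, and of 12 genes that supply them 6 rose in WT and 5 in KO mice, with 0 lower, beside 9.60% of all genes higher in WT and 9.23% in KO mice. Their median log2 change was 0.18 and 0.19. Shmt2, which makes glycine in the mitochondrion, changed by 0.66 in WT and 0.58 in KO mice. The signal of Shmt2 was 168 to 215 in WT control and 233 to 436 in WT heme mice, with no overlap. Dld and Dlst, subunits of the complex that makes succinyl-CoA, changed by 0.40 and 0.37 in WT and 0.34 each in KO mice. For Suclg1, a subunit of succinyl-CoA ligase, the change was 0.27 and 0.35.

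The carriers of glycine, iron and porphyrins across the mitochondrial and other membranes were 10 measured of 11. Of these 5 were called higher in WT and 6 in KO mice (beside 9.60% and 9.23% of all genes), with 0 lower in either and medians of 0.26 and 0.23. Abcg2, which exports porphyrins and heme from the cell, changed by 0.65 in WT and 0.64 in KO mice, and its signal of 287 to 348 in WT control did not overlap the 427 to 634 in WT heme mice. Tmem14c, which carries protoporphyrinogen IX into the matrix, changed by 0.56 and 0.57. Abcb6, a porphyrin transporter, changed by 0.48 and 0.47, and Tspo, a porphyrin-binding protein of the outer membrane, by 0.47 and 0.52.

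Fech needs an iron-sulfur cluster, and of 12 genes measured of 14 that assemble such clusters 6 rose in WT and 5 in KO mice (beside 9.60% and 9.23% of all genes), with medians of 0.18 and 0.17. Bola3 changed by 0.51 in both genotypes, Iba57 by 0.34 and 0.33 and Fdx2 by 0.31 and 0.29. Glrx5, a glutaredoxin that passes clusters on, was called in WT mice (0.40) and not in KO mice (0.13, limma adjusted p 0.057), and the difference between the genotypes was not called.

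Of 11 genes measured of 13 that act on Alas1 or its protein, 3 were higher and 2 lower in WT mice, and 1 higher and 1 lower in KO mice. The 2 genes called in KO mice are a share near the 18.4% of all genes called there, and in WT mice 17.9% of all genes were called. Ppargc1a, a coactivator that induces Alas1 in fasted liver, fell while Alas1 rose: its signal was 1294 to 1708 in WT control and 697 to 1108 in WT heme mice, a log2 change of -0.66, and -0.85 in KO mice. Nr1d2, a heme-binding nuclear receptor of the clock, changed by -0.65 in WT mice and -0.43 in KO mice, the latter not called. Lonp1, a matrix protease that degrades Alas1 protein, rose by 0.35 and 0.29. Clpx, the chaperone that acts on the same enzyme, was called in WT mice (0.24) and not in KO mice (0.17). In the list for heme breakdown and movement, 1 of 6 genes measured of 7 was called in each genotype, Hmox1, and 0 were lower, a share near the 17.9% and 18.4% of all genes called. Flvcr2 of that list had a mean signal below 20 in every group and could not be called. None of the genes in these 5 lists was called between the genotypes on either diet or in the interaction.

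**Figure D4:**
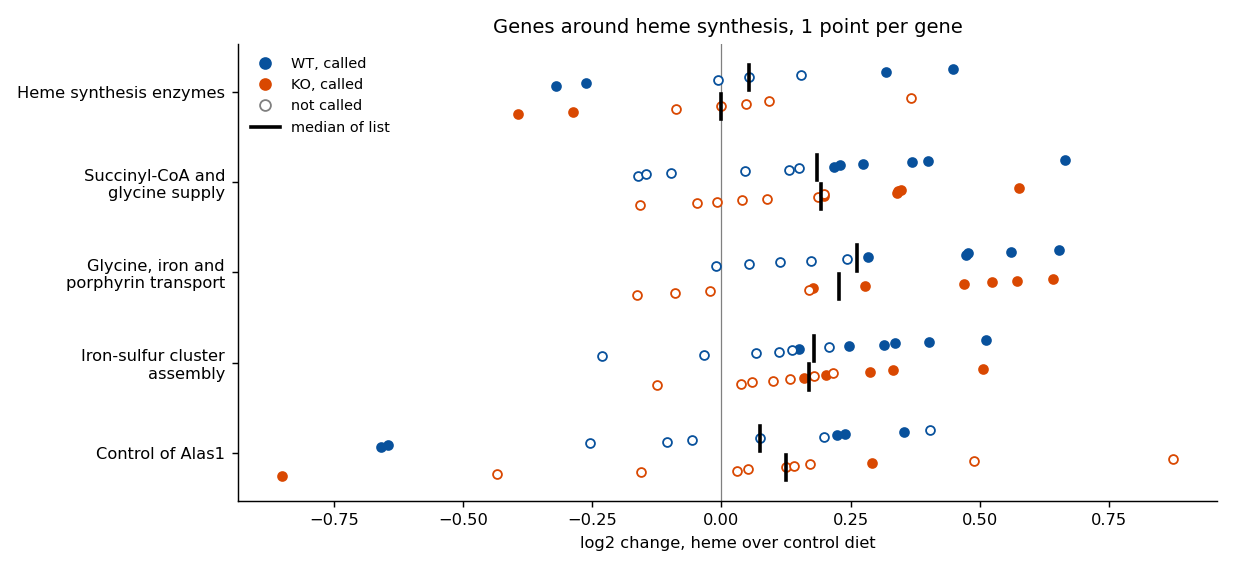
Log2 change on heme of the heme synthesis enzymes and of the genes in 4 neighbouring lists, 1 point per gene, in WT (blue, upper row of each list) and KO mice (orange, lower row); filled points were called and black bars are list medians. The enzymes lie on both sides of 0 with a median near it, while called genes of substrate supply, transport and iron-sulfur assembly all lie to the right.

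Markers of other cells and of cell division moved beside the enzymes on heme. All 15 G2 and M phase genes measured of 18 were called higher in both genotypes, beside 9.60% of all genes in WT and 9.23% in KO mice. Their medians were 0.86 in WT and 0.73 in KO mice, and Hmmr (1.09 and 0.91) and Plk1 (1.02 and 0.86) were among them. Their summed signal was 3819 to 5352 in WT control and 5988 to 9306 in WT heme mice, and 3051 to 4959 and 5588 to 8408 in KO mice, with no overlap in either genotype. Across arrays the mean log2 level of these genes had an r of -0.85 with Urod (-0.55 within groups), -0.72 with Ppox (-0.39), 0.70 with Alad (0.29) and 0.61 with Alas1 (0.14). The epithelial genes had an r of 0.72 with Alas1 (0.47 within groups), 0.50 with Alad (0.14), -0.51 with Urod (0.14) and -0.64 with Ppox (-0.33). The smooth muscle genes had an r of -0.54 with Alas1 (-0.03), 0.48 with Urod (-0.34) and 0.61 with Ppox (0.18). Of the 12 epithelial genes, 2 were called higher and 2 lower in WT mice, beside 9.60% and 8.29% of all genes. In KO mice 3 were called higher and 2 lower, beside 9.23% and 9.20%. Krt20 and Vil1 rose in both genotypes (Krt20 by 0.50 and 0.47) and Krt19 in KO mice (0.20). The genes that fell in both included Epcam, whose log2 level fell by 0.18 and 0.24. The erythroid enzyme gene Alas2 had signals of 34.4 to 44.3 in WT control and 36.9 to 45.6 in WT heme mice. It was called lower in KO mice on heme (-0.29, limma adjusted p 0.00422), with 0 of the other 4 erythroid genes called. Of those, Epb42, Klf1 and Gata1 had mean signals below 20 in every group, so that the rule could not call them. Of 11 leukocyte genes measured of 12, only Itgam was called, lower in WT (-0.32) and KO mice (-0.46). That share is near the 8.29% and 9.20% of all genes called lower. The summed leukocyte signal was 958 to 1250 in WT control, 980 to 1213 in WT heme, 1213 to 1692 in KO control and 807 to 2763 in KO heme mice. The part of these markers in the values of the enzymes was not tested.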

How the data were processed

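Colon mucosa was scraped from each mouse, total RNA was prepared, and 100 ng was labelled and hybridised to 1 Affymetrix Mouse Gene ST array per mouse. The authors computed the deposited log2 values per probe set with RMA (background correction, quantile normalisation, summarisation), its version being not given in the sources used here. They left out 1 WT control array. Their methods mention regrouped probe sets, which may differ from the deposited ones. Since there is no read depth, the number of arrays limits the precision.

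Of 35556 probe sets, 21218 had 1 gene symbol, 1881 several and 12457 none; only the first were used, with 21185 named by Entrez number in RefSeq (GRCm38.p6), and the brightest was taken per gene. The 4 groups were fitted in 1 model with limma 3.58.1 (lmFit, contrasts, eBayes) in R 4.3.3, with Benjamini-Hochberg adjustment over 18820 genes. Linear signal is 2 to the power of the log2 value. Permutation tests were exact over arrays (462 or 924 arrangements), in Python 3.11.15. The limma fit at its main setting was tested on simulated log2 values with known changes, and the other steps were not. Mice are the replicates, and the limma p-values weigh differences of group means against the spread between arrays. The enzymes and gene lists were chosen with earlier results of these data known. All 7 enzymes are described; from other lists up to 4 called genes with the largest changes are named, and for each enzyme the 3 genes of most similar pattern. Alternatives concerned probe sets, array centring, signal filter, threshold, groups in the fit, array weights, variance model, two-way models, the replicate number, a smooth muscle covariate and each array left out.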

Additional observations from a re-analysis of the deposited data

Results flagged for a closer look

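Of 28 groups of arrays, 1 for each enzyme and group, 2 held an array that lay far from the rest by Dixon's test, which flags about 1 in 20 groups by chance. Urod in KO heme replicate 3 had a log2 value of 8.43 (signal 344), above the other 5 arrays at 8.24 to 8.30. It lay towards the controls, and the KO change in Urod was called with and without it. Fech in WT control replicate 1 had a log2 value of 7.77 (signal 218), below the other 4 arrays at 7.88 to 7.90. This array is 1 of the 2 with the most smooth muscle signal in its group.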

How the results depend on the processing

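The falls of Urod in both genotypes and of Ppox in KO mice kept their direction and their call in every alternative run. In WT mice 4 enzymes were called, beside 3367 of all 18820 genes. The count was 2 with only the compared groups in the fit (2509 of all genes) and 2 with the replicate block (3237). It was 1 with the smooth muscle covariate (1185 of all genes) and 2 without the pair of WT control arrays rich in smooth muscle signal (1826). With each array left out it was 2 to 4, beside 2585 to 3602 of all genes. Alas1 in WT mice was not called in an ordinary two-way model (adjusted p 0.0141 on log2 values, 0.0193 on linear signal). The call of Alad in WT mice was lost with only the compared groups (limma adjusted p 0.0125). Alas1 in KO mice was called with centred arrays (0.42, limma adjusted p 0.00936) and with array weights (0.40, 0.00826).

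Whether the replicate numbers pair the samples was not settled. The deviations of 33 same-numbered pairs correlated at -0.31 to 0.34, with 14 over 0.1, but differently numbered pairs were not compared. With the replicate block Alas1 and Ppox in WT mice changed by 0.44 and -0.26 (limma adjusted p 0.0152 and 0.0126), and no other call of an enzyme changed.

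Values near 0 changed sign, and none of these was called. Centred arrays gave 0.0372 for Cpox in WT, 0.0545 for Uros in KO, -0.0102 for Cpox in KO against WT mice on the control diet and 0.00354 for Fech in the interaction. Array weights gave 0.0072 for Uros in KO mice. The replicate block gave -0.0024 for Cpox in KO against WT mice on the control diet and 4.24e-04 for Fech in the interaction. The covariate gave 0.0677 for Cpox in WT mice, 0.0191 for Uros in KO mice, -0.0215 for Alad and 0.0155 for Ppox in KO against WT mice on the control diet, and 0.00744 for Fech in the interaction. Without the pair of arrays the last 3 were -0.0541, 0.0154 and 0.0186. Leaving out 1 array at a time gave -0.041 to 0.0377 for Cpox in WT and -0.0235 to 0.0211 for Uros in KO mice. Between the genotypes it gave -0.0295 to 0.0365 for Cpox and -0.0359 to 0.015 for Ppox on the control diet, -0.00375 to 0.116 for Alas1 and -0.043 to 0.0352 for Urod on heme, and -0.00157 to 0.0767 for Urod and -0.0262 to 0.0161 for Fech in the interaction. The causes of these shifts were not tested.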
